A study of Mus musculus with 8 samples.

Results

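The genes described are 30 mouse genes of the interferon response and of double-stranded RNA sensing, taken by name from a table of 43432 genes. All 30 had a row in the table, and 29 passed the filter on low counts and were tested. RNA was measured in lenses of mouse embryos at embryonic day 14.5, with 4 control libraries and 4 Mettl3 CKO libraries. CKO stands for conditional knockout, and Mettl3 encodes the enzyme that writes m6A on RNA. Each group has replicates a to d. The Cre driver, the alleles of the controls, the strain and the number of embryos behind a library are not stated in the labels, so that p-values reflect variation among libraries that may in part be technical. The pairs a, b (called set 1) and c, d (set 2) have records that are not contiguous, and the set was a term of the fit. The comparison asks whether loss of m6A sets off innate sensing of RNA.

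Long double-stranded RNA in a cell is commonly a sign of virus. It is bound by the sensors RIG-I (Ddx58), MDA5 (Ifih1), LGP2 (Dhx58), PKR (Eif2ak2), Tlr3 and Zbp1, and RIG-I and MDA5 signal through the mitochondrial adaptor Mavs and the kinase Tbk1 to the transcription factors Irf3 and Irf7. These switch on interferon genes. Secreted type I interferon binds the receptor pair Ifnar1 and Ifnar2, whose kinases Jak1 and Tyk2 activate Stat2, which joins Irf9 in a complex that binds interferon-stimulated response elements and turns on antiviral effectors. Adar edits a cell's own double-stranded RNA so that MDA5 does not respond to it, and Usp18 blocks the receptor. m6A is a common mark on messenger RNA, and loss of Mettl3 in blood-forming cells of the mouse fetal liver is known for a double-stranded RNA response.

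Most of the effectors searched hold a short sequence pattern before their start sites. The effectors were listed as genes that interferon induces, so a high share was likely beforehand and does not bear on the CKO comparison. The pattern GAAANNGAAA, the core of an interferon-stimulated response element, was searched on both strands in the 250 bases before each RefSeq start site (assembly GRCm38.p6). It was present in 8 of the 25 members in the promoter table (32%), against 936 of all 27025 genes in that table (3.46%). By role, 7 of the 11 effectors in the table held it (Ifit1, Ifit3, Isg15, Oas1a, Rsad2, Bst2 and Gbp2), as did the transcription factor Stat2. The 2 receptors, 4 sensors, Mavs and Tbk1, and the other 4 transcription factors in the table held none in this window, and neither did Adar. Dhx58, Zbp1, Mx1, Mx2 and Usp18 were not matched in the table. For Irf9 and Tlr3 the windows lie inside the gene as annotated here, which starts at chr14:55603571 (plus) and chr8:45411080 (minus). The bases before those 2 annotated starts were not searched. A match is a run of letters and is no evidence that a factor binds. The stretches below end at the base before the RefSeq start site and run 5′ to 3′ on the gene's strand. Matches on either strand are in capitals, and the Irf9 stretch lies inside the annotated gene. Ifit1, Ifit3, Isg15, Oas1a and Bst2 are shown because they hold more than 1 match, overlapping in Isg15, Oas1a and Bst2, and Irf9 because it is the member whose RNA passed the test. Ifit1 lies at chr19:34640769-34640888 (plus strand), Ifit3 at chr19:34583363-34583528 (plus), Isg15 at chr4:156200819-156200938 (minus), Oas1a at chr5:120907526-120907645 (minus), Bst2 at chr8:71537473-71537612 (minus) and the first of 2 Irf9 start sites at chr14:55603865-55603984 (plus).
Ifit1: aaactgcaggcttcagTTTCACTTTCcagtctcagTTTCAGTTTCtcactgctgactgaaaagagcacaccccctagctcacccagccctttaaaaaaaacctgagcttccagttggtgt
Ifit3: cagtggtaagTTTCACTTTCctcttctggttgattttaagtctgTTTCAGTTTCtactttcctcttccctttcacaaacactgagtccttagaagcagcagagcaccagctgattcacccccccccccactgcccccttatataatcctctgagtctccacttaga
Isg15: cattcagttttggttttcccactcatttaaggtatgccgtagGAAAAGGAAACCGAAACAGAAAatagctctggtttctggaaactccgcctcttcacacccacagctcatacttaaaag
Oas1a: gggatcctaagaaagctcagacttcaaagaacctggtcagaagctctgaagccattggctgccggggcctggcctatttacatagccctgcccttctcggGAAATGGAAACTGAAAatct
Bst2: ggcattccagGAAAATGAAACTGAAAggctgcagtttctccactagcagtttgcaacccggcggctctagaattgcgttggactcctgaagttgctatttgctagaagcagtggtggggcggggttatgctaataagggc
Irf9: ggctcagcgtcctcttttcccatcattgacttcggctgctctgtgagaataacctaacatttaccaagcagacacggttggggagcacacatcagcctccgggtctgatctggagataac

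Mettl3 RNA was lower in every CKO library, at 24.8 ± 2.94 CPM (counts scaled to a common library size by TMM, a trimmed mean of ratios; SD, n = 4) in control and 12.4 ± 3.25 CPM in CKO. The log2 fold change was -1.02 (SE 0.15, edgeR adjusted p = 0.00259; two-sided exact permutation test p = 0.0286, the smallest that 4 against 4 allows). Of its exon bases, 18.4% are shared with Tox4 on the other strand, and whether the counting used strand is unknown. Library totals lay between 19110170 and 56098211 counts. Lens markers were abundant in every library. The 14 markers summed to between 184076.8 and 229842.3 CPM in control and between 141188.2 and 200891.6 CPM in CKO. The 30 members took between 0.0232% and 0.0325% of the counts of a library.

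Of the 29 tested members, 1 was called changed, that is, had a Benjamini-Hochberg adjusted p under 0.05 over all 16241 genes tested with edgeR's quasi-likelihood F-test. This was Irf9, which was higher in CKO, and 0 members were called lower. DESeq2 and limma-voom also called 0 lower, and Irf9 and Adar higher. Those 2 are 6.9% of the tested members, against 9.03% of all genes called higher by DESeq2 and 7.22% by limma-voom. With edgeR the background was 10.5% of all genes called, 6.5% higher and 4.01% lower, and the members' share was 3.45%. Among all called genes 61.8% were higher, a split that became 45.2% when trends on transcript length and GC content were removed. The members' median log2 fold change was 0.08 and that of all genes was -0.03. The fitted change was above 0 in 17 members and below 0 in 12. Unadjusted p-values under 0.05 were found for 6 members (20.7%), against 26.5% of all genes. The 4 control and 4 CKO values did not overlap in 3 members (10.3%), against 16.3% of all genes: Irf9 and Adar lay above in CKO, where 8.96% of all genes did, and Tbk1 lay below, where 7.38% did. How tightly a change was bounded depended on the level of the gene. The 95% interval lay within 1 log2 unit of 0 for 10 members, and it was wider than 1 unit on each side for 15, all 13 effectors having an upper bound above 1.

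**Figure D1:**
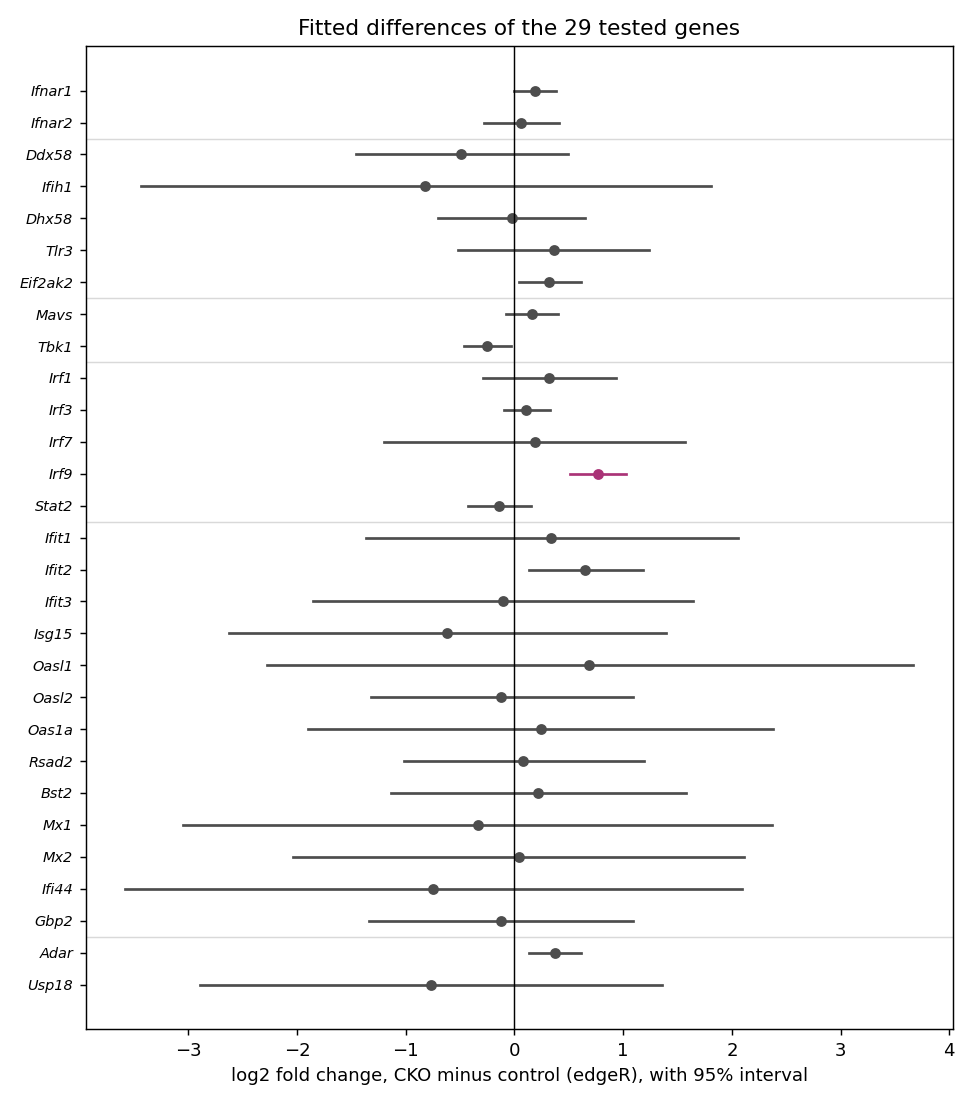
Log2 fold change (CKO minus control) of the 29 tested members, grouped by role, with bars for the 95% interval of the edgeR fit. Irf9 at 0.77, in purple, is the gene that passed the test, and the widest bars belong to sensors, effectors and Usp18 with low counts.

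Few reads were counted for the interferon genes themselves. Of 21 ligand genes, 17 had 0 counts in all 8 libraries, out of 293560134 counts in total, and these 17 include all 16 alpha, beta and gamma genes listed, Ifnb1 and Ifng among them. A count of 0 allows up to 3 counts, which is between 0.0527 and 0.157 CPM in these libraries. This limit covers counting error only, and reads that map to several of the alpha genes may be counted for none. The other 4 genes were Ifnk with 24 counts in all, Ifnz with 12, Ifne with 6 and Ifnl3 with 3, and the highest count of any of them in a library was 10, for Ifnk in control c. None passed the filter, so none was tested.

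Both subunits of the type I interferon receptor were present in every library and neither was called by edgeR, DESeq2 or limma-voom. Ifnar1 was at 50.7, 54.3, 57.9 and 57.2 CPM in control a to d and at 56.6, 58.3, 70.2 and 66.5 CPM in CKO a to d. The groups overlap, with CKO c and d highest, and the log2 fold change was 0.19 (SE 0.09, adjusted p = 0.184). Ifnar2, the second subunit, had means of 10.9 ± 1.62 and 11.6 ± 2.43 CPM (SD, n = 4) and a log2 fold change of 0.06 (95% interval -0.28 to 0.41). Of its exon bases, 9.46% are shared with a predicted gene on the same strand. Downstream of the receptors, 14 genes of interferon receptors and JAK-STAT signalling were tested. Of these, edgeR called 1 higher, beside 6.5% of all genes, and 0 lower. It was Jak1, the kinase bound to the receptor, at 47.0 ± 1.94 CPM in control and 58.4 ± 1.88 CPM in CKO with no overlap (log2 fold change 0.32, SE 0.09, adjusted p = 0.0402). The call was kept without control c and lost when any of the other 7 libraries was left out, where the adjusted p reached 0.133. Tyk2, the second kinase, singled out after its values were seen, had CKO values below all control values. Its means were 26.0 ± 3.46 CPM in control and 19.5 ± 1.85 CPM in CKO (log2 fold change -0.41, adjusted p = 0.0532), and it passed with DESeq2 but not with edgeR or limma-voom.

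None of the 5 tested sensors was called by edgeR, DESeq2 or limma-voom, and their median log2 fold change was -0.02. With edgeR 1 of them had an unadjusted p under 0.05, where 26.5% of all genes did. PKR (Eif2ak2), which halts translation when it binds double-stranded RNA, was the most abundant of them per length, at 1.96 FPKM (CPM per kilobase of exon) in control. It was at 9.94, 9.39, 11.7 and 9.02 CPM in control a to d and at 12.2, 11.4, 13.5 and 13.1 CPM in CKO a to d. Only control c reached into the CKO range, and the log2 fold change was 0.32 (SE 0.13, 95% interval 0.04 to 0.61, adjusted p = 0.14). Of the other tested sensors, Dhx58 was highest in control, at 0.513 FPKM. RIG-I (Ddx58), which recognises RNA with a 5′ triphosphate, was at 2.37, 2.73, 6.53 and 2.30 CPM in control and at 3.41, 3.55, 1.56 and 1.84 CPM in CKO. Control c was above every other library, and the log2 fold change of -0.49 had an interval from -1.46 to 0.49. MDA5 (Ifih1), which binds long double-stranded RNA, varied more, between 0.340 and 2.56 CPM in control and between 0.0351 and 2.30 CPM in CKO (log2 fold change -0.82, interval -3.44 to 1.81). Control c and CKO b were its highest libraries. LGP2 (Dhx58), which modulates the other helicases, had means of 1.68 ± 0.513 and 1.65 ± 0.272 CPM (log2 fold change -0.02, interval -0.70 to 0.65). Tlr3, the endosomal receptor of double-stranded RNA, had means of 1.81 ± 0.952 and 2.40 ± 0.853 CPM (0.36, interval -0.52 to 1.24). Zbp1, which binds left-handed nucleic acid helices, did not pass the filter, with 4, 5, 38 and 0 counts in control a to d and 4, 23, 14 and 28 counts in CKO a to d. Scaled to library size, control c (0.925 CPM) and CKO b (0.927 CPM) were highest.

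Mavs, the adaptor of RIG-I and MDA5, had the highest level per length of all members, at 12.7 FPKM in control. Its means were 42.5 ± 5.50 and 47.5 ± 3.55 CPM and its log2 fold change was 0.16 (SE 0.11, adjusted p = 0.396). Tbk1, the kinase that phosphorylates Irf3, was at 24.0, 28.0, 26.7 and 29.1 CPM in control a to d and at 22.5, 22.6, 22.7 and 23.2 CPM in CKO a to d. Every CKO value lay below every control value, by a small margin, and the change did not pass the test (log2 fold change -0.25, SE 0.10, adjusted p = 0.137). Among 33 tested adaptors and cofactors of RNA sensing outside the 30 members, 3 were higher, beside 6.5% of all genes, and 0 were lower. The median log2 fold change of the 33 was 0.16. Zcchc3, which helps RIG-I and MDA5 bind RNA, went from 39.4 ± 4.46 to 63.7 ± 8.61 CPM (0.69, SE 0.12, adjusted p = 0.00772). Ticam1 (TRIF), the adaptor of Tlr3, went from 4.84 ± 1.37 to 8.93 ± 0.705 CPM (0.88, SE 0.19, adjusted p = 0.0174). Traf6, a ubiquitin ligase of several innate receptors, went from 38.7 ± 1.74 to 55.5 ± 10.7 CPM (0.51, SE 0.11, adjusted p = 0.0176). In all 3 the CKO values lay above all control values, as they did in 8.96% of all genes. Zcchc3 was called in each of the 8 fits without 1 library, Ticam1 in 6 of them and Traf6 in 4, with adjusted p-values of up to 0.0465, 0.0661 and 0.0875. Ticam1 was not called without control b or without CKO d, nor Traf6 without control d or without CKO a, c or d.

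Irf9, the DNA-binding subunit of the complex that answers type I interferon, was the called member. Its gene (ENSMUSG00000002325) lies at chr14:55603571-55610030 on the plus strand of mm10. It was at 13.3, 14.5, 13.4 and 12.9 CPM in control a to d and at 20.7, 21.8, 27.1 and 22.8 CPM in CKO a to d. The control libraries were close to each other and every CKO library was above all of them. The log2 fold change was 0.77 (SE 0.12, 95% interval 0.51 to 1.03, adjusted p = 0.00311), a fold of 1.71, and it was 0.60 in set 1 and 0.96 in set 2. It kept its call whichever library was left out (0.68 to 0.82) and under the 13 other alternatives tried. The start of the gene overlaps the end of Rnf31 on the same strand over 123 exon bases, 2.28% of the exon bases of Irf9. Rnf31, a subunit of the linear ubiquitin ligase singled out for this overlap, was itself higher, from 18.5 ± 2.50 to 26.5 ± 3.17 CPM (0.52, adjusted p = 0.0318), and the part of shared reads in either value was not tested.

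The partner of Irf9 and the other 3 interferon regulatory factors were not called. Stat2 was at 11.9 ± 0.541 CPM in control and 10.8 ± 1.26 CPM in CKO (log2 fold change -0.14, interval -0.43 to 0.15). Irf3, the factor activated directly by Tbk1, was at 24.1 ± 2.19 and 26.1 ± 3.21 CPM (0.11, interval -0.10 to 0.33). These intervals are narrow. Irf1, which is induced by interferon and by inflammatory signals, was at 2.45 ± 0.459 and 3.11 ± 0.917 CPM (0.32, interval -0.29 to 0.93). Irf7, which is itself induced by interferon and amplifies the response, ranged from 0.604 to 2.65 CPM in control and from 0.650 to 4.15 CPM in CKO (0.19, interval -1.20 to 1.57). Control c was the highest control library for Irf7, and CKO b the highest of all.

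**Figure D2:**
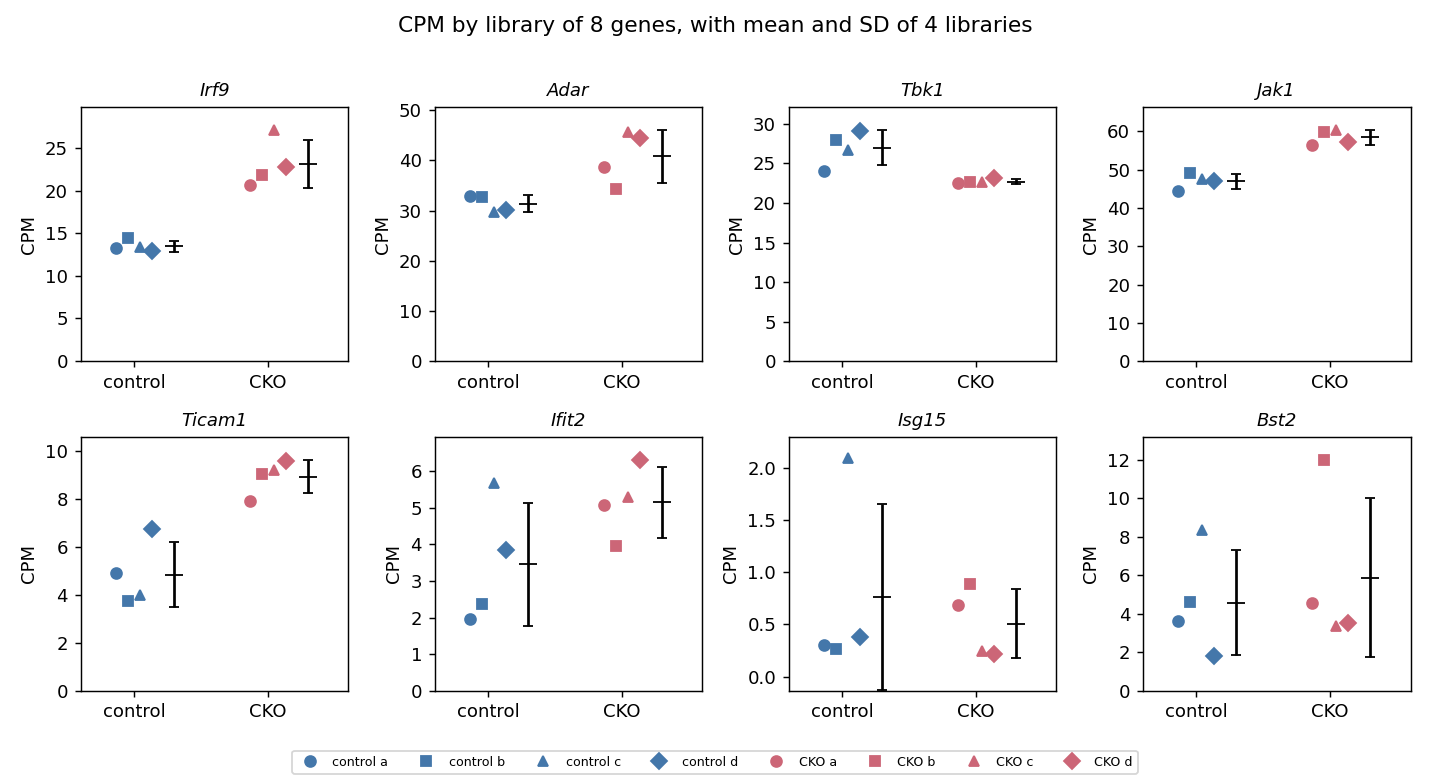
CPM in each of the 8 libraries for Irf9, Adar, Tbk1, Jak1, Ticam1, Ifit2, Isg15 and Bst2, with the mean and SD of 4 libraries beside each group. The groups do not overlap for Irf9, Adar, Tbk1, Jak1 and Ticam1, whereas control c holds the highest Isg15 value at 2.09 CPM and CKO b the highest Bst2 value at 12.0 CPM.

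None of the 13 induced effectors was called by edgeR, DESeq2 or limma-voom. DESeq2 gave no adjusted p for at least Ifit1, Ifit3 and Oasl1, so it could not call these. With edgeR 1 effector had an unadjusted p under 0.05, where 26.5% of all genes did. Their fitted log2 fold changes ran from -0.75 (Ifi44) to 0.69 (Oasl1) with a median of 0.04 and a smallest adjusted p of 0.107. Most were close to the floor: only Bst2 and Isg15 reached 1 FPKM in control, and Isg15 went from 1.01 to 0.418 FPKM without control c. Ifit2, which binds RNA and blocks its translation, came nearest to a call. It was at 1.95, 2.38, 5.67 and 3.85 CPM in control a to d and at 5.09, 3.95, 5.29 and 6.32 CPM in CKO a to d. Control c lay among the CKO libraries, and the other control libraries lay below all of them. The log2 fold change was 0.65 (SE 0.24, interval 0.13 to 1.18, adjusted p = 0.107). Its relatives Ifit1, which binds RNA lacking a cap methyl group, and Ifit3, its partner, had wide intervals. Ifit1 was at 0.153, 0.309, 1.24 and 0.0755 CPM in control a to d and between 0.388 and 0.787 CPM in CKO. Control c lay above every CKO library for Ifit1, and the other control libraries lay below all of them. Ifit3 ranged from 0.0378 to 1.19 CPM in control and from 0.316 to 0.605 CPM in CKO. Their log2 fold changes were 0.34 (interval -1.37 to 2.06) and -0.11 (interval -1.85 to 1.64).

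Isg15, a ubiquitin-like modifier and among the genes that interferon induces most, was at 0.306, 0.265, 2.09 and 0.378 CPM in control a to d and at 0.682, 0.887, 0.246 and 0.213 CPM in CKO a to d. Control c stood apart, and CKO a and b lay above CKO c and d. The log2 fold change was -0.62 (SE 0.90, interval -2.63 to 1.39). Bst2 (tetherin), which holds budding virus at the cell surface and is also made by endothelium, was at 3.63, 4.59, 8.33 and 1.79 CPM in control and at 4.57, 12.0, 3.35 and 3.53 CPM in CKO (0.22, SE 0.58, adjusted p = 0.85). CKO b and control c were highest. Oasl1, a member of the oligoadenylate synthetase family that restrains Irf7 translation, was at 0, 0.220, 1.36 and 0 CPM in control and at 0.472, 0.766, 0.650 and 0.310 CPM in CKO (0.69, interval -2.28 to 3.67). Control c was again highest, and control a and d had no count.

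The remaining effectors were spread in the same way. Oasl2, a relative of Oasl1, ran from 1.66 to 7.31 CPM in control and from 2.19 to 7.21 CPM in CKO (log2 fold change -0.12). Oas1a, which makes the activator of RNase L, ran from 0.0765 to 1.24 CPM and from 0.0878 to 0.846 CPM (0.24). Rsad2 (viperin), which makes a chain-terminating nucleotide, ran from 0.650 to 2.51 CPM and from 0.698 to 1.89 CPM (0.08). In these 3 every CKO value lay within the control range, whose top was control c. The next highest control library, b, was at 4.06, 0.265 and 0.926 CPM for Oasl2, Oas1a and Rsad2. Mx1 and Mx2, of the family of dynamin-like antiviral GTPases, had at most 0.560 and 0.998 CPM in any library, with log2 fold changes of -0.34 and 0.04. The annotation lists Mx2 as a polymorphic pseudogene. Ifi44, a cytoplasmic interferon-induced protein, reached 2 CPM in control c and had no count in CKO c (-0.75, interval -3.58 to 2.09). Gbp2, a guanylate-binding protein that answers mainly interferon gamma, ran from 0.220 to 0.658 CPM and from 0.161 to 0.472 CPM (-0.12). Members of the Ifit, Oas and Mx families are close copies of their neighbours and reads that map to several of them may be counted for none.

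**Figure D3:**
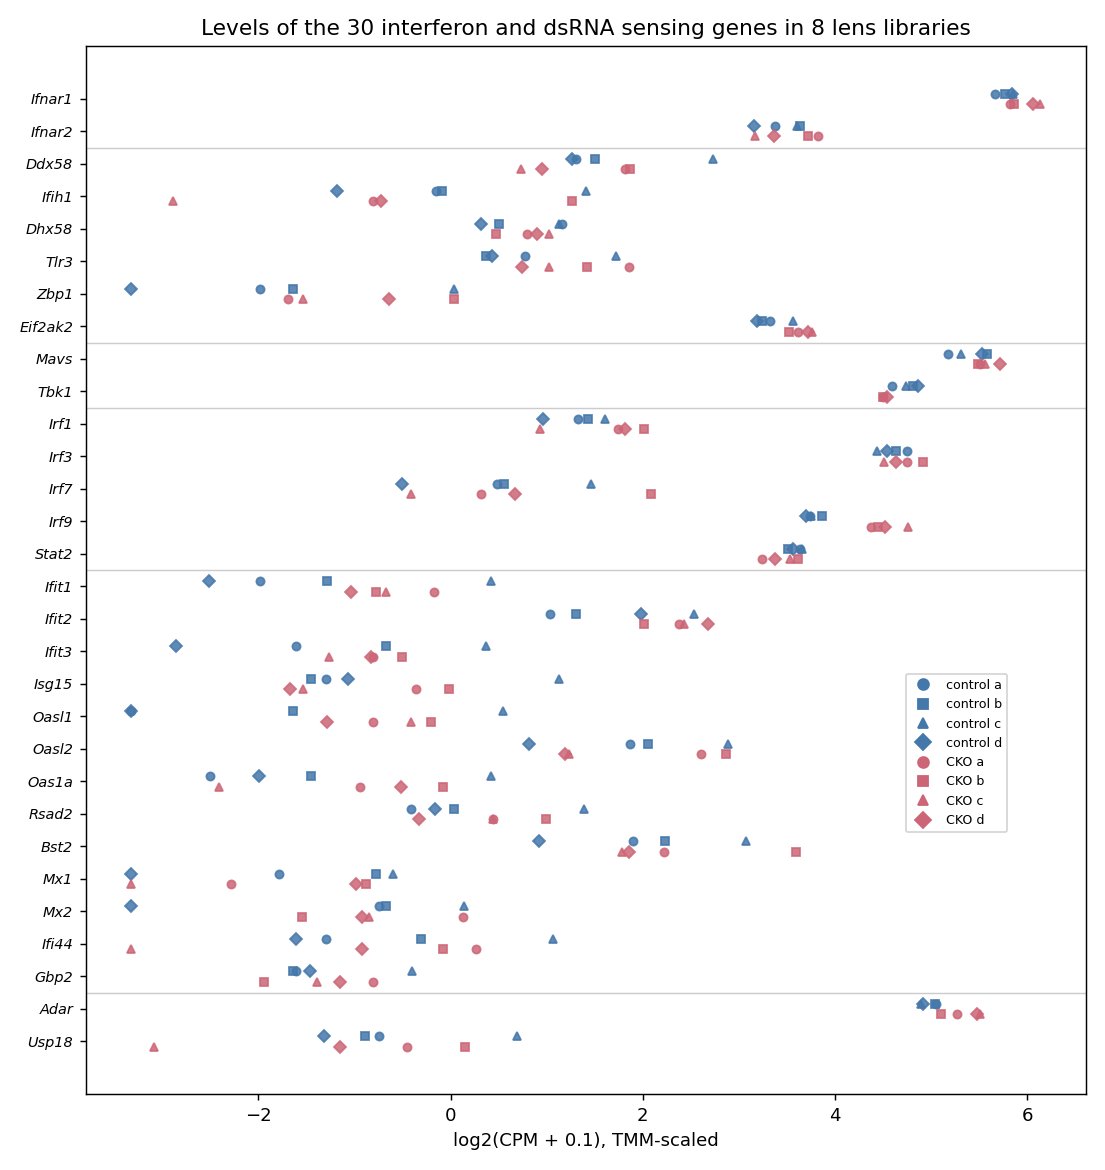
Level of each of the 30 members in the 8 libraries, as log2(CPM + 0.1) after TMM scaling, with control in blue and CKO in red and a marker shape for each replicate letter. Irf9 is separated by genotype, and the blue triangle of control c lies to the right of every other library in 11 of the 13 effectors.

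The effectors were high together in a few libraries. Control c was the highest library for 11 of the 13 effectors and for 15 of the 29 tested members. The share of all genes for which control c was highest was not counted, so these counts have no background. Summed over the 13 effectors, the level was 11.8, 15.5, 35.2 and 9.23 CPM in control a to d and 22.4, 30.3, 14.7 and 16.3 CPM in CKO a to d. The sum was highest in control c, then in CKO b and CKO a, and lowest in control d, and the group means were 17.9 and 20.9 CPM. The same 3 libraries were highest in the summed markers of endothelium and pericytes, which were 308, 400, 632 and 277 CPM in control and 546, 835, 266 and 328 CPM in CKO. None of those 9 markers was called by edgeR, DESeq2 or limma-voom or had an unadjusted p under 0.05, all 9 had a fitted change above 0, and the most abundant, Kdr and Cdh5, had means of 89.8 and 76.2 CPM in control and 98.9 and 89.8 CPM in CKO. In bulk tissue, fewer cells of a type and less RNA per cell cannot be told apart.

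Other cell types varied as well, and their calls stand beside 6.5% of all genes called higher and 4.01% called lower. The 12 macrophage markers summed to between 40.2 and 56.8 CPM in control and between 58.8 and 133 CPM in CKO, highest in CKO a and b. Of these 12, 4 were higher and 0 lower, with a median log2 fold change of 0.76, and C1qc, a complement gene of macrophages, was the one with the smallest p (log2 fold change 1.12, SE 0.21, adjusted p = 0.00968). The erythroid sum lay between 578 and 2182.6 CPM in control and between 441 and 4042.7 CPM in CKO, highest in CKO b and control c, with 0 of 8 markers called by edgeR, DESeq2 or limma-voom and 0 with an unadjusted p under 0.05. The retina and pigment epithelium sum lay between 4.67 and 44.5 CPM in control and between 23.1 and 127 CPM in CKO, highest in CKO c, with 0 of 9 tested called by edgeR, 3 with an unadjusted p under 0.05 and 1, Pmel, called by DESeq2. The mesenchyme and surface ectoderm sum lay between 292 and 603 CPM in control and between 183 and 511 CPM in CKO, with Pdgfra lower (-0.48, adjusted p = 0.0445) among 9. The lymphoid and dendritic cell sum was low, between 3.43 and 6.41 CPM over all libraries, with Cd79b higher (2.03, adjusted p = 0.0434) among 6 tested. That call rests on means of 0.0943 and 0.383 CPM, DESeq2 did not make it, and it was lost in every fit without 1 library in which Cd79b was tested (adjusted p of up to 0.126). Cryab and Lim2 were lower among the 14 lens markers (-0.57 each, adjusted p = 0.0309 and 0.0307), calls kept in 2 of the 8 fits without 1 library for Cryab (control a or c left out) and in 1 for Lim2 (control c). Pdgfra kept its call in 2 (control c or CKO b). The part of any of these cell types in the members' values was not tested.

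**Figure D4:**
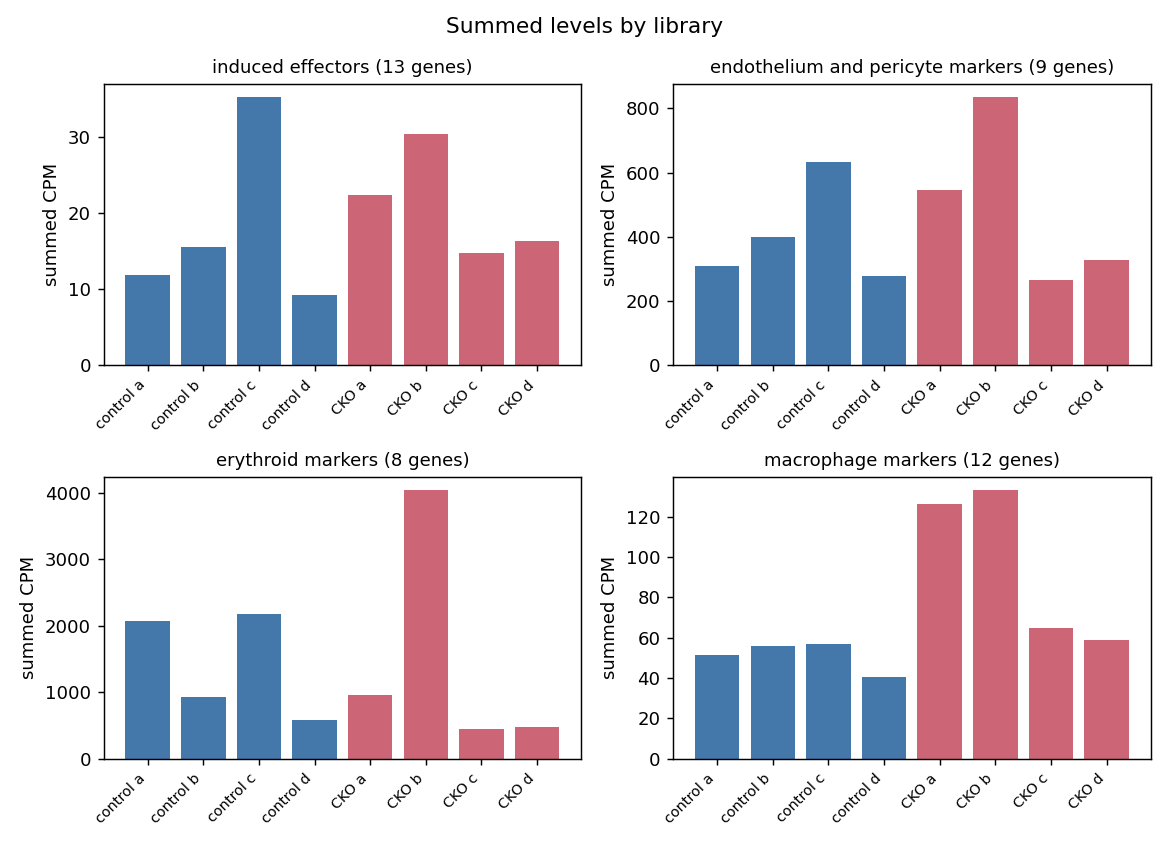
Summed CPM in each library for the 13 effectors and for the endothelium and pericyte, erythroid and macrophage marker lists, with control in blue and CKO in red. Control c at 35.2 CPM and CKO b at 30.3 CPM lead the effectors and also lead the endothelium and pericyte markers, at 632 and 835 CPM with their order exchanged.

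The sets differed in direction for many members. Within set 1, 25 of the 29 members and 12 of the 13 effectors had a fitted log2 fold change above 0, and within set 2 this was so for 9 members and for 1 effector, Ifit2. Isg15 had a log2 fold change of 1.43 in set 1 and -2.35 in set 2, and Oas1a of 1.89 and -0.95. The interaction of genotype and set was called in 0 members and in 0% of all 16241 genes by edgeR. Its unadjusted p was under 0.05 in 4 of the 29 members and in 2662 genes, or 16.4% of all genes. Irf9, Irf1, Irf3, Adar, Eif2ak2, Ifnar1, Mavs and Ifit2 were above 0 in both sets, and Tbk1, Stat2 and Mx1 were below 0 in both. Without control c, which belongs to set 2, 27 members passed the filter and 4 were higher instead of 1 (14.8%), where 8.86% of all genes were called higher: Irf9, Ifit2 (adjusted p = 0.0236, range over all alternatives 0.0236 to 0.521), Oasl1 (0.0397, range 0.0397 to 0.961) and Bst2 (0.0439, range 0.0439 to 0.996). Set 2 is then left with a lone control library.

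**Figure D5:**
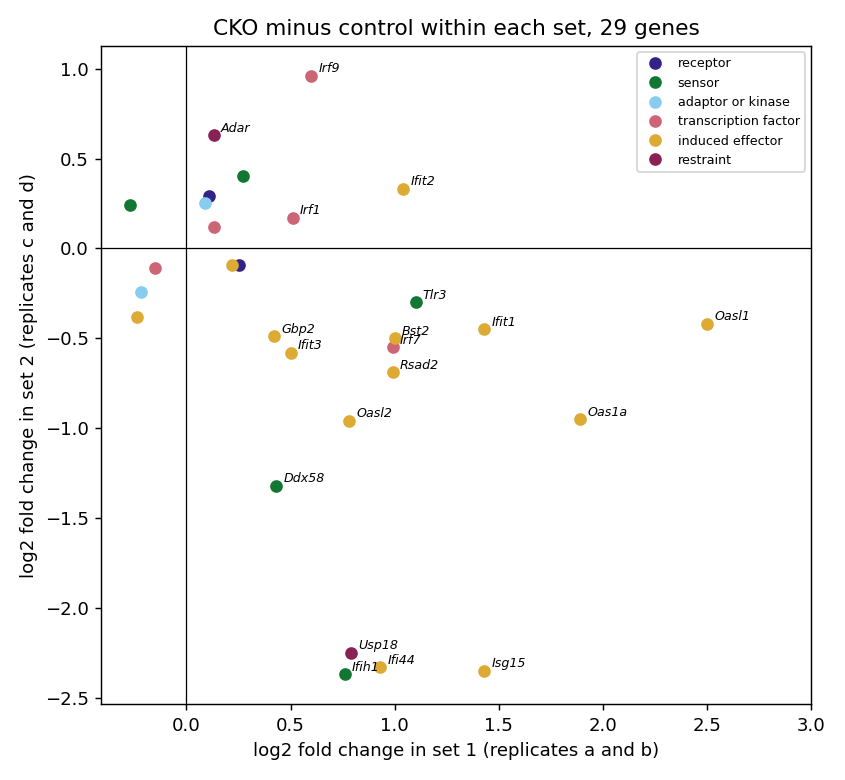
Log2 fold change within set 1 (replicates a and b) on the x axis and within set 2 (replicates c and d) on the y axis for the 29 tested members, coloured by role. Most effectors lie to the right of 0 and below 0, while Irf9 at 0.60 and 0.96 lies above 0 in both sets.

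Of the 2 genes that restrain the response, neither was called by edgeR. Adar was at 33.0, 32.8, 29.7 and 30.2 CPM in control a to d and at 38.6, 34.4, 45.6 and 44.5 CPM in CKO a to d. All CKO values lay above all control values, CKO b by the smallest margin. The log2 fold change was 0.37 (SE 0.11, interval 0.13 to 0.61, adjusted p = 0.0536), just short of the threshold, and it was 0.13 in set 1 and 0.63 in set 2. It was called without CKO b (adjusted p = 0.0421) and under 5 other alternatives, among them DESeq2 and limma-voom, over a range of adjusted p from 0.0314 to 0.595. Of the exon bases of Adar, 16.8% are shared with Chrnb2 on the other strand, a receptor subunit at 2.14 ± 0.674 and 2.65 ± 0.693 CPM. Usp18, which removes Isg15 from proteins and blocks the receptor, was at 0.497, 0.441, 1.51 and 0.302 CPM in control and at 0.630, 1.01, 0.0176 and 0.349 CPM in CKO (-0.77, SE 0.94, adjusted p = 0.659). Control c was highest. Among 18 tested genes of double-stranded RNA binding, editing and decay, 0 were called by edgeR, DESeq2 or limma-voom and 2 had an unadjusted p under 0.05, with a median log2 fold change of -0.05 and a smallest adjusted p of 0.132. The most abundant, the helicases Ddx5 and Ddx17, had log2 fold changes of -0.20 and -0.09. Trex1, a nuclease that clears DNA, had 0 counts in all libraries, and all of its exon bases are shared with Atrip on the same strand, so its RNA was not measured.

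Other genes that answer interferon had few calls. Among 43 tested interferon-stimulated genes outside the 30 members, edgeR called 1 higher, beside 6.5% of all genes, and 0 lower, with a median log2 fold change of 0.06. The interaction of genotype and set had an unadjusted p under 0.05 in 13 of the 43, against 16.4% of all genes, and none passed after adjustment. The 1 gene called higher in CKO was Daxx, a histone chaperone also listed with retroelement silencing. Daxx was at 25.5 ± 3.35 CPM in control and 37.0 ± 5.75 CPM in CKO (0.53, SE 0.13, adjusted p = 0.0309). The call of Daxx was kept without control a, control c or CKO a and lost in the other 5 fits without 1 library (adjusted p of up to 0.124). The most abundant genes, Ifitm2 and Trafd1, had log2 fold changes of -0.09 and -0.01. The 14 tested antigen presentation genes had 0 calls by edgeR, DESeq2 or limma-voom, 2 unadjusted p-values under 0.05, a median of 0.06 and a smallest adjusted p of 0.126. The most abundant were Psme1, a proteasome activator subunit (-0.22, adjusted p = 0.126), and Nlrc5, an activator of class I genes (-0.49, adjusted p = 0.161). The list of cytosolic DNA sensing had 0 calls by edgeR and 1 unadjusted p under 0.05 among 10 tested genes, Tmem173 (STING, 0.68, adjusted p = 0.071), which DESeq2 and limma-voom called. It had log2 fold changes of -0.04 and -0.01 for its most abundant members Lrrfip1 and Ddx41.

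Pathways that touch RNA sensing held a few called genes, beside 6.5% of all genes called higher and 4.01% called lower. Of 15 tested NF-kB genes and targets, Nfkb1 was higher (13.0 ± 3.31 to 20.3 ± 1.65 CPM, log2 fold change 0.64, adjusted p = 0.0358) and Chuk, a kinase of the pathway, was lower (56.3 ± 5.83 to 43.1 ± 3.53 CPM, -0.39, adjusted p = 0.0316). Of the 8 fits without 1 library, Nfkb1 kept its call in 1 (without control c) and Chuk in 3 (without control a, control c or CKO a), with adjusted p-values of up to 0.115 and 0.125. Of 8 genes of eIF2 alpha phosphorylation, the step PKR acts on, Nck1 was higher in every fit without 1 library (25.0 ± 4.14 to 40.9 ± 5.22 CPM, 0.72, adjusted p = 0.00647). Of 18 genes that silence retroelements, a cellular source of double-stranded RNA, 4 were higher and 0 lower, beside 6.5% of all genes higher, with a median of 0.19. These were Setdb1, a histone H3 methyltransferase (93.2 ± 8.67 to 137 ± 21.2 CPM, 0.55, adjusted p = 0.0147), the chromatin assembly subunits Chaf1b (0.51, adjusted p = 0.0213) and Chaf1a (0.52, adjusted p = 0.0263), and Daxx. Of the 8 fits without 1 library, Setdb1 kept its call in 5, Chaf1b in 4 and Chaf1a and Daxx in 3 each. All 4 kept it without control a, control c or CKO a, Setdb1 also without control b, and Setdb1 and Chaf1b also without CKO b, and adjusted p-values reached 0.0767, 0.0767, 0.117 and 0.124. RNA from retroelements and editing of double-stranded RNA were not analysed here.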

How the data were processed

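RNA was extracted with TRIzol, and NEBNext Ultra libraries of polyadenylated RNA were sequenced, per the labels' protocols. The submitters' processing notes name CASAVA, HISAT2 and featureCounts on mm10, without versions. For the counting, neither strand use nor annotation release is given in the sources used here. As deposited by the authors, the values are whole read counts per Ensembl gene, with no normalisation, and no other column was used. Of 43432 gene IDs, 42548 were matched to GENCODE M21, which gave symbols, coordinates and exon length. In R 4.3.3, edgeR 4.0.16 tested 16241 genes (filterByExpr with a minimum count of 10 and minimum total of 15, TMM, robust quasi-likelihood fit of set and genotype), with Benjamini-Hochberg adjustment over all of them. The set term rests on the series record and no label calls it a batch. Adjusted p-values come from this fit unless another tool is named (limma 3.58.1, DESeq2 1.42.0). Effects within a set come from fits of its 4 libraries. CPM were scaled by TMM, and FPKM are CPM per kilobase of exon. Members and lists were chosen with earlier results of these data known. All members were named, with Mettl3 and, of each other pathway list, up to 4 called genes with the smallest p-values or, where fewer than 2 were called, also the pair with the highest mean CPM. Of marker lists, the pair with the highest mean CPM and called genes were eligible, up to 4. Genes outside this rule (Tyk2, Tox4, Rnf31, Chrnb2, Trex1, Atrip, Tmem173) were chosen after their values were seen, and a result on 1 gene is not reported here. Library totals of 19110170 to 56098211 counts leave little counting error except for rare transcripts, and limits from a count of 0 cover counting error only. The test was checked on simulated data.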

Additional observations from a re-analysis of the deposited data

Results flagged for a closer look

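Within a group of 4 libraries, a value was singled out when its gap to the nearest other library took a share of the group's range above Dixon's 95% critical value. Of 58 groups of values over the 29 tested members, 8 met this, and 7 of the 8 were control c. Chance gives about 1 in 20 for independent groups, which these genes, measured in the same libraries, are not. Among all 16241 genes tested, 5.77% of groups met it, and control c stood apart in 3.48% of genes, against 24.1% of the tested members. In control c, the sensor Ddx58 was at 6.53 CPM with the other 3 control libraries between 2.30 and 2.73 CPM. The effector Isg15 was at 2.09 CPM there against 0.265 to 0.378 CPM, Oasl1 at 1.36 CPM against 0 to 0.220 CPM, and Oas1a at 1.24 CPM against 0.0765 to 0.265 CPM. Rsad2 was at 2.51 CPM against 0.650 to 0.926 CPM and Gbp2 at 0.658 CPM against 0.220 to 0.264 CPM. Usp18, which restrains the receptor, was at 1.51 CPM against 0.302 to 0.497 CPM. The remaining value was Bst2 in CKO b, at 12.0 CPM against 3.35 to 4.57 CPM in the other CKO libraries. Control c and CKO b also had the highest endothelium and pericyte sums, at 632 and 835 CPM, and the part of those cells in these values was not tested.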

How the results depend on the processing

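Irf9 was called higher in all 21 alternatives. Over 591 fits of a member under an alternative, 520 kept their direction and side of the threshold, 10 passed it anew, 0 lost a call and 61 changed sign, 35 of them on leaving out 1 library. Low counts limit most sensors and effectors. Leaving out 1 library moved the genes called from 503 to 2553 (1706 with all), higher from 373 to 1407, lower from 130 to 1146, members called and called higher from 1 to 4, other pathway genes called from 2 to 27 (11 with all), higher from 2 to 21 and lower from 0 to 6, and interaction calls from 0 to 5 members and from 0 to 1984 genes. The fits without a library leave a set with a lone library of its genotype, assumed to vary like the others. Members called, all higher, were 2 with no filter, with a minimum count of 30, with DESeq2, with limma-voom and in set 2 alone (each Irf9 and Adar), and with length and GC trends removed (Irf9 and Ifit2). In that order, all genes called higher were 5.45%, 8.01%, 9.03%, 7.22%, 4.65% and 7.15%. The members' share was 6.9%, except 11.1% with a minimum count of 30 and 7.14% with trends removed. With no filter the interaction was called in 3 members and 918 genes.

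The replicate letters were not taken to pair samples. Same-letter deviations from the group means correlated at -0.06, 0.09, -0.19 and 0.28 for a to d, and only d correlated best with its own letter. With so few libraries these correlations cannot exclude a pairing. With the replicate block, 665 genes were called, 505 higher and 160 lower, with 1 member (Irf9) and 3 other pathway genes, 3 higher and 0 lower. Set 2 alone gave 939 genes, 183 of them lower, and 5 other pathway genes, 5 higher and 0 lower. DESeq2 gave 1001 lower genes and 20 other pathway genes, 17 higher and 3 lower. Removing length and GC trends gave 1217 lower genes and 17 other pathway genes, 7 lower. The same protein-coding genes with trends kept, an alternative chosen after seeing the data, gave 3 lower pathway genes. Set 1 alone gave 19 other pathway genes, 4 lower, and no filter gave 17, 3 lower. Upper quartile scaling gave 2 lower and a minimum count of 30 gave 3 lower.

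The following log2 fold changes changed sign and the cause was not tested. In set 2 alone they were Ifnar2 -0.09, Dhx58 0.24, Tlr3 -0.30, Irf7 -0.55, Ifit1 -0.45, Oasl1 -0.42, Oas1a -0.95, Rsad2 -0.69, Bst2 -0.50, Mx2 -0.09, Ptpn11 0.00, Trafd1 0.09, Ddx17 0.06, Lrrfip1 0.08, Kdr -0.85 and Cdh5 -0.77. In set 1 alone they were Ddx58 0.43, Ifih1 0.76, Ifit3 0.50, Isg15 1.43, Oasl2 0.78, Ifi44 0.93, Gbp2 0.42, Usp18 0.79, Ddx41 0.05, Eif2s1 0.05, Hba-a1 1.0, Hbb-bs 0.67, Col3a1 0.23 and Cryba1 0.19. With limma-voom they were Dhx58 0.11, Ifit3 0.78 and Oasl2 0.08, and with the replicate block Dhx58 0.02, Ifit3 0.45 and Oasl2 0.09. Without the set term they were Oasl2 0.07, Hba-a1 0.30 and Col3a1 0.02. With length and GC trends removed they were Irf3 -0.02 and Kdr -0.03, and Kdr was 0.00 on the same genes with trends kept. Isg15 did not pass the filter without control c, and Gbp2 passed it in only 4 of the 8 fits without 1 library, so their ranges lack those fits. Leaving out 1 library gave ranges that cross 0 for Ifnar2 (-0.03 to 0.20), Ddx58 (-0.75 to 0.07), Ifih1 (-1.79 to 0.34), Dhx58 (-0.23 to 0.17), Irf7 (-0.43 to 0.93), Ifit1 (-0.01 to 1.86), Ifit3 (-0.50 to 1.35), Isg15 (-1.21 to 0.02), Oasl2 (-0.38 to 0.64), Oas1a (-0.27 to 1.58), Rsad2 (-0.21 to 0.71), Bst2 (-0.25 to 0.99), Mx1 (-1.39 to 0.87), Mx2 (-0.46 to 1.39), Ifi44 (-1.36 to 0.54), Gbp2 (-0.52 to 0.06) and Usp18 (-1.22 to 0.18), and among other genes for Trafd1 (-0.12 to 0.11), Ddx41 (-0.05 to 0.05), Kdr (-0.28 to 0.53), Cdh5 (-0.24 to 0.60), Hba-a1 (-1.06 to 0.50), Hbb-bs (-1.20 to 0.24) and Col3a1 (-0.45 to 0.35).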
